A study of Mus musculus with 4 samples.

Results

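The proteasome genes are described here in blood labelled as mouse, before and during cerulein-induced acute pancreatitis. They were taken by name: every gene name in the files that starts with Psma, Psmb, Psmc, Psmd, Psme, Psmf or Psmg, which gave 48 of 16152 names. Of these, 5 are subunits of the immunoproteasome and its activator (Psmb8, Psmb9, Psmb10, Psme1 and Psme2), and 42 are the other subunits, regulators and assembly factors, called standard members below. The remaining name, Psmc3ip, is not a proteasome subunit and is given apart. Psma8 held only 1 or 2 UMIs (unique molecular identifiers, counted RNA molecules) in each library and Psmd10 held 117 to 188, so neither reached the 100 UMIs asked for in any comparison.

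Peripheral blood mononuclear cells were separated on a density gradient and measured with a droplet-based 5′ RNA assay of single cells, 1 library per group. All groups are wild-type C57BL/6J mice of 6 to 8 weeks. The control library was taken at 0 h, and the other 3 libraries 12, 24 and 96 h into pancreatitis induced with 7 intraperitoneal injections of cerulein, a cholecystokinin analogue that overstimulates pancreatic acinar cells. The series' text gives 168 h for the last time, where the sample labels give 96 h, and the number of animals per library is not given in the sources used here. With 1 library per group there is no replicate error and no test between groups, so all intervals below are 95% intervals that cover counting error only and each ratio compares 2 libraries.

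The proteasome is the barrel-shaped protease that degrades ubiquitin-tagged proteins. Its core is built from rings of alpha and beta subunits, a regulatory cap of ATPases and other subunits unfolds and feeds in the substrate, and dedicated chaperones assemble both. In immune cells, and in other cells exposed to interferon, the catalytic subunits Psmb5, Psmb6 and Psmb7 can be replaced by Psmb8, Psmb9 and Psmb10, which form the immunoproteasome, and the activator PA28 (Psme1 and Psme2) can bind the core. Immunoproteasomes change which peptides are cut for display on major histocompatibility complex (MHC) class I.

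The libraries held 11663 to 14569 deposited cells with medians of 3571 to 4861.5 UMIs. After filtering and doublet removal, 10464 to 12929 cells per library were used. Cells were gated by marker genes into B cells (1905 to 2939 per library), T cells (2087 to 5608), NK cells (349 to 715), classical monocytes (381 to 1064) and nonclassical monocytes (1330 to 3511). Each lineage's own marker list was highest in that lineage, which follows from gating on the same lists and is no check of cell identity. The CD8 and CD4 T lists were exceptions. NK cells held as many CD8 T list UMIs (732.2 to 979 CPM, UMIs per 1000000 UMIs) as T cells did (631 to 858). Cd4 was higher in nonclassical monocytes (53.2 to 75.0 CPM) than in T cells (14.8 to 20.5). Neutrophil marker RNA was found in every lineage during pancreatitis: the 7 listed genes summed to 18.3 CPM in B cells of the control library and to 4146 at 12 h. The deposited barcode lists of the 12 h and 24 h libraries are the same (11663 of 11663 barcodes shared), and the other pairs of lists share 0. The control list holds 4340 barcodes for 14569 cells and the 24 h list 11663 for 12588, so these lists do not match their matrices, and no barcode was used. The matrices' gene names include 28 that start with RT1-, the rat prefix for MHC genes, and 0 that start with H2-, the mouse prefix, although the labels give mice. Whether the cells and the gene models are those of mouse was not tested. Levels are therefore reported by gene name only, and the mouse sequences and motif counts below were matched to these names without a check of species.

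Upstream sequences are shown for 4 members whose levels are described below: Psmb8, an immuno catalytic subunit, Psmb5 and Psmb6, the standard subunits that Psmb8 and Psmb9 replace, and Psmg3, the chaperone that was higher in every lineage. They are RefSeq sequences of the mouse assembly GRCm38.p6, matched by symbol, and give the 250 bases before each gene's annotated start, 5′ to 3′ on the gene's strand. Whether they fit the gene models on which the reads were counted was not tested. Capitals mark matches to GAS (TTCNNNGAA, the gamma-activated site) in Psmb8 and to ARE (TGACNNNGC, bound by NFE2L1 and NFE2L2) in Psmb5 and Psmb6, searched on both strands.
Psmb8 (chr17:34197945-34198194, + strand): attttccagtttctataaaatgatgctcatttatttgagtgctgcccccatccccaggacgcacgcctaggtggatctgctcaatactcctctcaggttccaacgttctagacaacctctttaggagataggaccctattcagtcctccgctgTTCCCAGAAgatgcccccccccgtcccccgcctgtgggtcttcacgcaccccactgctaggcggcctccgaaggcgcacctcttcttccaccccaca
Psmb5 (chr14:54617996-54618245, − strand): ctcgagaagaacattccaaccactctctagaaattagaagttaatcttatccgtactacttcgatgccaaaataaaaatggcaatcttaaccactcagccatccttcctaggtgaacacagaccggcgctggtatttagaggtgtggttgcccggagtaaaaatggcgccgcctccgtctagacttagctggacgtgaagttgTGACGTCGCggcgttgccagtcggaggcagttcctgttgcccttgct
Psmb6 (chr11:70525107-70525356, + strand): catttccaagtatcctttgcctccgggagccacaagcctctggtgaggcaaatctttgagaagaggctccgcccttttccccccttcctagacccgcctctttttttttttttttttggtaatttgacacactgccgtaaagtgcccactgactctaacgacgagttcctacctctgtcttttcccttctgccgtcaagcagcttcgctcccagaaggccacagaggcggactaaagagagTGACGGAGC
Psmg3 (chr5:139826895-139827144, − strand): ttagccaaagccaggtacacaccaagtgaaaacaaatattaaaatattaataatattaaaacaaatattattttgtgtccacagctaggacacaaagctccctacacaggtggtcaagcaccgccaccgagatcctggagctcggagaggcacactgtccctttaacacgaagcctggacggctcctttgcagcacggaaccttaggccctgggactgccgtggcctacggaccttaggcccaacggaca

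The GAS match began 97 bases before the start of Psmb8, and the ARE matches began 47 bases before that of Psmb5 and 9 bases before that of Psmb6. Windows of 300 bases, the 250 shown plus 50 of the transcript, were used for 5 of 5 immunoproteasome genes and 34 of 42 standard genes. Windows of members on 1 chromosome were left out before counting, while the windows of all genes were not filtered in this way. GAS was in 1 of the 5 and 2 of the 34, and 8.30% of all 32851 windows held it. ARE was in 0 of the 5 and 6 of the 34, with 12.4% of all windows holding it. ISRE (GAAA, any 2 bases and GAAA again, bound by interferon regulatory factors) was in 1 of the 5, in Psme1 from base 10 of the transcript, and in 4 of the 34, with 3.44% of all windows holding it. Of the immuno catalytic genes, Psmb9 and Psmb10 held no match to any of the 3 motifs, so the GAS match of Psmb8 does not stand for them. A match is a stretch of letters and no evidence of binding, and a missing match says only that the letters are not in that window.

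Levels below are CPM of the lineage in that library. A gene was called higher where it was at least 25% above the control library and lower where it was at least 20% below it, which is a size and not a test; it was tested, in this sense, with at least 100 UMIs over both libraries. In the control library, the 5 immunoproteasome subunits summed to 2080 CPM in NK cells and 2011 in nonclassical monocytes, 1603 in B cells, 1574 in T cells and 1288 in classical monocytes. The NK and nonclassical monocyte sums differed by less than counting error (ratio 1.03, 0.999 to 1.07), as did the T and B cell sums (0.982, 0.960 to 1.005). The 42 standard members summed to 5590 CPM in nonclassical monocytes, 5233 in NK cells, 4687 in classical monocytes, 4090 in T cells and 4050 in B cells. The monocyte subsets thus stood apart in the immunoproteasome: the nonclassical subset held more of it than the classical subset, with Psmb9 at 467 against 240 CPM and Psmb10 at 348 against 179. Among the standard members, PA200 (Psme4, an alternative activator) and the structural beta subunit Psmb4 were among those that went the other way. Psme4 was at 49.8 against 62.4 CPM and Psmb4 at 167 against 268.

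**Figure D1:**
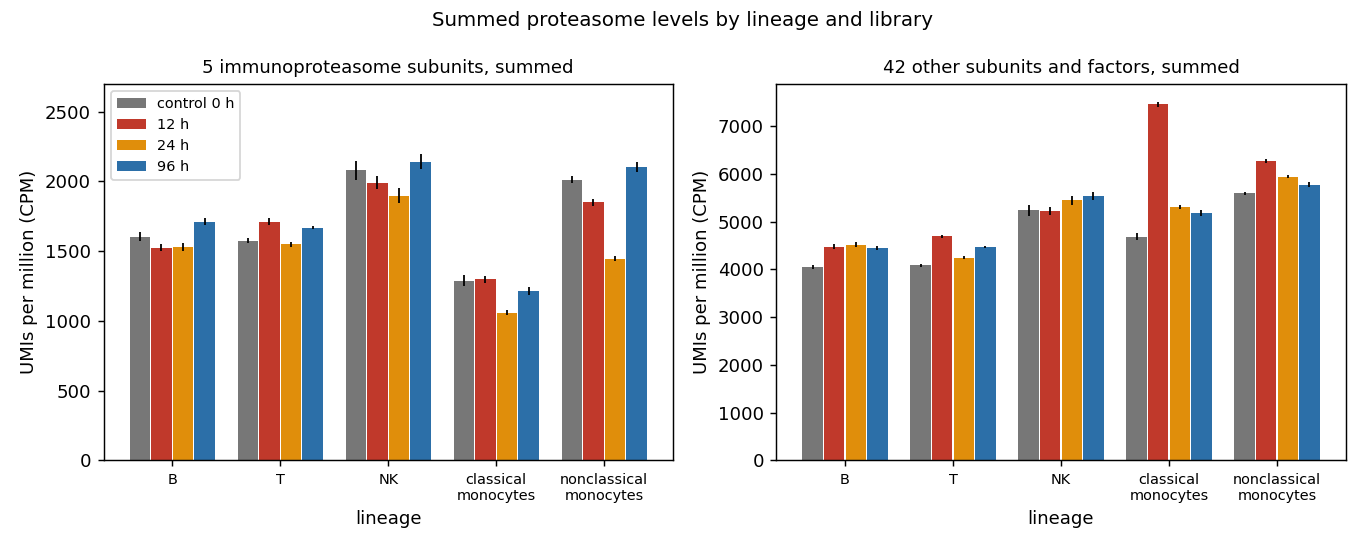
Summed level of the 5 immunoproteasome subunits (left) and of the 42 standard members (right) in CPM, by lineage on the x axis and library by colour; bars are single libraries and error bars are exact Poisson 95% intervals. Within nonclassical monocytes the immunoproteasome sum was lowest at 24 h (1446 CPM), and the summed standard members were highest at 12 h in classical monocytes (7457 CPM).

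Immunoproteasome RNA was lower at 24 h in nonclassical monocytes. The 5 subunits summed to 2011 CPM in control cells and 1848, 1446 and 2104 CPM at 12, 24 and 96 h. The 24 h library was at 0.719 of control (0.707 to 0.731), 12 h at 0.919 and 96 h at 1.05. The standard members of the same cells were at 1.06 of control at 24 h (1.05 to 1.07). The 5 immunoproteasome subunits were all called lower at 24 h, where 23.7% of all genes tested were lower and 12.0% higher. Among all 46 members tested, these 5 included, the only other one called lower was Psmg4 (0.787), and 3 were higher. With scaling by the median of gene ratios, 3 of the 5 were lower; this scaling moves all genes of this comparison up by 0.09 on the log2 scale.

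Psmb9, which replaces Psmb6, was at 467 CPM in control nonclassical monocytes and 402, 297 and 452 CPM at 12, 24 and 96 h. Its 24 h ratio to control was 0.636 (0.613 to 0.660). Psmb8, which replaces Psmb5, was at 18.6, 16.9, 11.6 and 12.8 CPM in the same order. It was at 0.622 of control at 24 h (0.515 to 0.751) and at 0.689 (0.532 to 0.886) at 96 h. Psmb10, which replaces Psmb7, was at 348, 371, 272 and 341 CPM, and its 24 h ratio was 0.781 (0.750 to 0.813). The 3 catalytic subunits were thus lowest in the 24 h library. The 96 h ratio of Psmb8 was 0.961 with cells thinned to 2000 UMIs, so its call at that time depends on this step.

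Both subunits of the PA28 activator were also lowest at 24 h. Psme1 (PA28 alpha) was at 834 CPM in control cells and 728, 601 and 917 CPM at 12, 24 and 96 h, with a 24 h ratio of 0.721 (0.702 to 0.740). Psme2 (PA28 beta) was at 343, 330, 265 and 380 CPM, with a 24 h ratio of 0.771 (0.740 to 0.803). Psme3, the nuclear PA28 gamma, which does not belong to the immunoproteasome set, was at 41.9, 46.9, 40.8 and 44.0 CPM and at 0.973 of control at 24 h (0.871 to 1.09). The partners of the immuno catalytic subunits were not lower: at 24 h Psmb5 was at 1.19, Psmb6 at 1.18 and Psmb7 at 1.19 of control.

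Other values of these cells moved with the immunoproteasome. The 5 classical monocyte markers in the files summed to 330 CPM in control nonclassical monocytes and 621, 1016 and 536 CPM at 12, 24 and 96 h, with no marker at 0 in any library. In classical monocytes the list stood at 3966 to 5814 CPM. The median depth of nonclassical monocytes was 3545 UMIs in the control library and 4728.5 at 24 h. Their part in the result was not tested. A split that asked for a lead of 2 markers between the subsets gave 0.741 for the immunoproteasome sum, thinning each cell to 2000 UMIs gave 0.742, and all gated monocytes together gave 0.682.

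Classical monocytes had a smaller difference of the same direction at 24 h. Their immunoproteasome sum was 1288 CPM in control cells and 1296, 1058 and 1215 CPM at 12, 24 and 96 h. The 24 h ratio was 0.821 (0.791 to 0.853). Psmb9, at 240, 220, 159 and 226 CPM, had the largest difference at 24 h (0.664 of control, 0.608 to 0.726), and Psme1, at 618, 497, 487 and 563 CPM, was at 0.788 (0.747 to 0.832). Psmb10 was at 1.04 and Psme2 at 0.904 of control, and Psmb8 held only 22 UMIs in the control library. Here 2 of 4 tested immunoproteasome subunits and 3 of 45 members were lower, with 24.2% of all genes lower. Psme3, at 0.780 of control, was the third.

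Classical monocytes of the 12 h library held the largest ratio of the standard sum among the 5 lineages. The 42 standard members summed to 4687 CPM in control cells and 7457, 5306 and 5186 CPM at 12, 24 and 96 h. The 12 h library was 1.59-fold above control (1.56 to 1.62), while the immunoproteasome sum was at 1.01 (0.969 to 1.05). Of 44 members tested, 37 were higher and 0 lower, where 35.4% of all genes were higher and 25.2% lower. The median log2 ratio of the 40 standard members tested was 0.81, and 0.09 over all genes tested.

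The core, the cap and the chaperones were all part of it. The 7 tested alpha ring subunits (Psma names), which gate the core, were between 1.46 and 2.07 of control, and Psma2 was highest, at 158 CPM in the control library and 327, 200.5 and 172 later. The 6 base ATPases (Psmc names), which unfold the substrate, were between 1.57 and 2.12. Psmc5 stood at 86.2 CPM in the control library and 183 at 12 h. Of the 11 cap subunits without ATPase activity (Psmd names), 10 were higher, and Psmd8, a lid subunit, was at 89.1, 220, 143 and 127 CPM, or 2.47 of control at 12 h (2.16 to 2.83). The 6 tested assembly chaperones were all higher, summing to 1.77 of control (1.61 to 1.95).

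The catalytic subunits split by type. Psmb5 was at 195 CPM in control cells and 367, 256 and 238 CPM at 12, 24 and 96 h, a 12 h ratio of 1.88 (1.72 to 2.07). Psmb6 was at 128, 227, 152 and 144 CPM (1.77, 1.58 to 1.99), and Psmb7 at 81.9, 127, 91.2 and 82.4 CPM (1.55, 1.34 to 1.80). All 3 were highest at 12 h. Psmb10 was also higher at 12 h, at 179 CPM in the control library and 264 at 12 h (1.47, 1.34 to 1.63), and so was Psme2, at 243 and 309 CPM (1.27, 1.17 to 1.38). Over the alternatives tried the ratio of Psmb10 ranged from 1.03 to 1.54 and that of Psme2 from 1.003 to 1.27, so both calls depend on the processing. Psmb9 was not (0.917, 0.839 to 1.003), and Psme1 was below control (0.804, 0.760 to 0.851).

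Not every standard member was higher. The structural beta subunits Psmb1 and Psmb4 were at 1.03 (0.971 to 1.10) and 0.972 (0.894 to 1.06) of control, beside Psmb3 at 1.83 (1.68 to 1.999). Psmf1, which inhibits the core, was at 0.978 (0.754 to 1.28), and Psme4 and the cap's ubiquitin receptor Psmd4, at 1.20 and 1.21, were not called higher. Psmb4 was singled out after its values were seen: in nonclassical monocytes it had the second largest ratio of the standard members at 24 h, at 167 CPM in control cells and 200.3, 237 and 191 CPM at 12, 24 and 96 h (1.42 of control at 24 h, 1.35 to 1.497).

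Several features of the classical monocytes moved with the 12 h difference. Dividing cells, those with at least 2 proliferation markers, were 0.0% of control cells, 17.2% at 12 h (121 of 703) and 1.41% and 1.28% later. Without them the sum of standard members was 1.46 of control. Their neutrophil markers (7 listed, 3 of them at 0 in the control library and none later) summed to 626 CPM in these cells in the control library and 32366 at 12 h, where S100a8 alone was at 19481 CPM. In the 71 neutrophil-gated cells of that library the standard members summed to 3335 CPM (3097 to 3587). Of those 71 cells 0 were dividing and their median depth was 2331 UMIs, so they are unlike the classical monocytes in both. Median depth of the classical monocytes was 7301 UMIs in the control library and 12724 at 12 h. The part of these in the result was not tested. The ratio was 1.54 with cells thinned to 2000 UMIs. A split by a lead of 2 markers gave 1.59, and all gated monocytes together, which pools both subsets, gave 1.251. A total without ribosomal and mitochondrial genes moves all genes here by -0.11 on the log2 scale and gave 1.47.

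The difference was smaller at the later times. At 24 h, 15 of 45 members were higher, with 18.5% of all genes higher, and the standard sum was at 1.13 of control. At 96 h, 6 of 43 members were higher and 1 lower (Psme3, 0.772), where 14.5% of genes were higher and 9.47% lower. Psmd8 was still at 1.43 (1.23 to 1.66) at 96 h. The ratio of Psmg2, a chaperone of the alpha ring, was 1.40 with an interval of 0.898 to 2.23 from 29 UMIs in the control library, and all gated monocytes together gave 0.965.

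**Figure D2:**
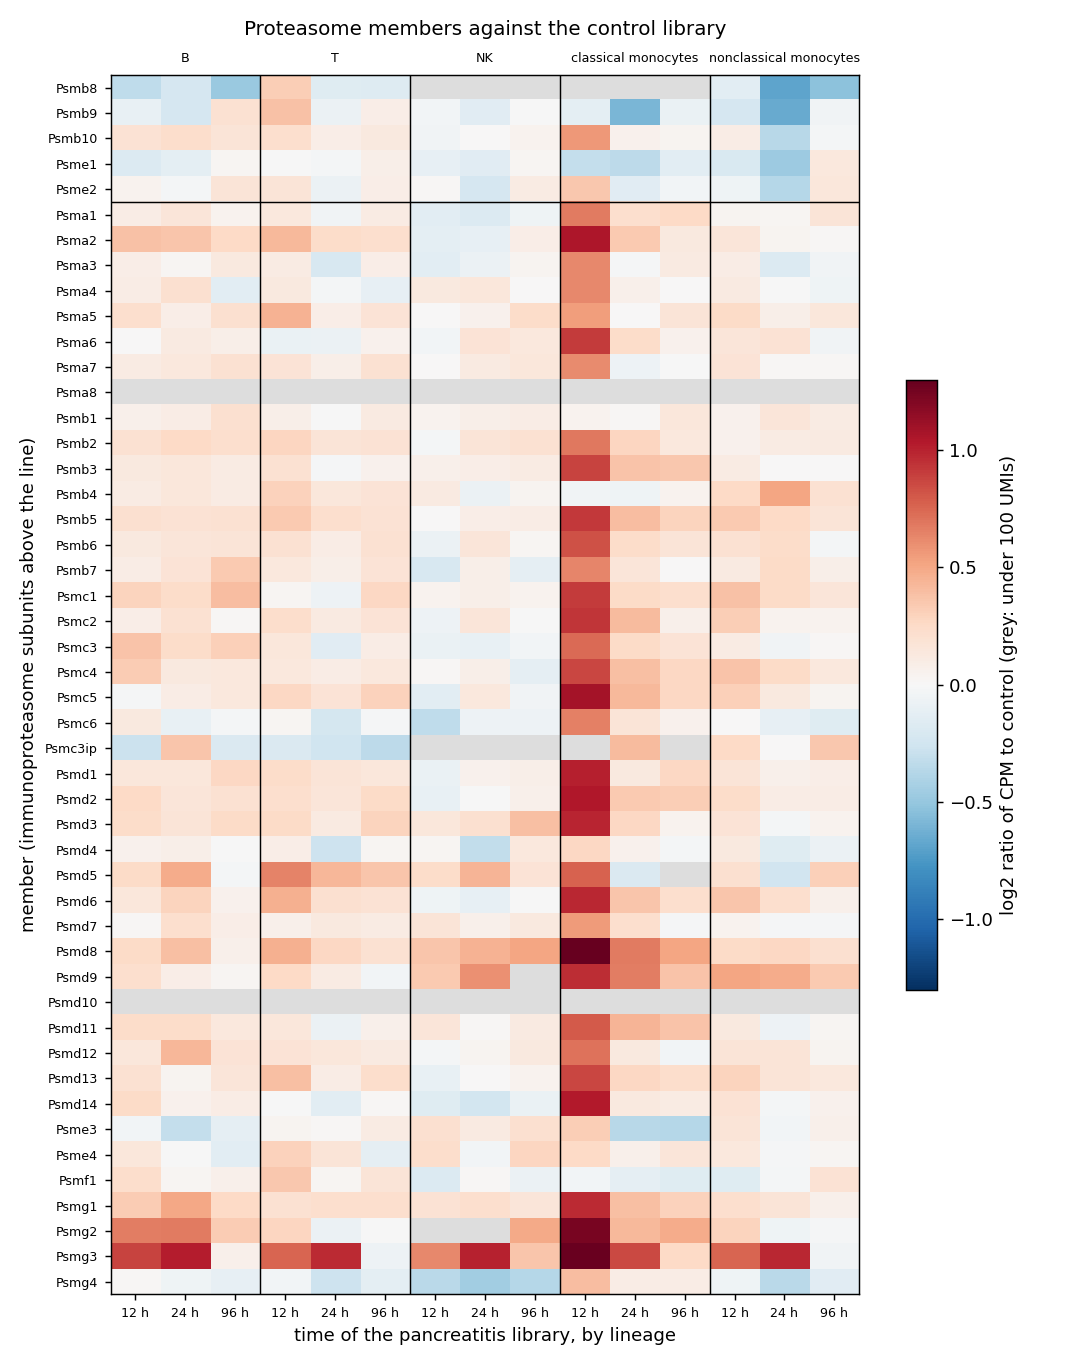
Ratio of each member to the control library on a log2 scale (colour), with members as rows, the 5 immunoproteasome subunits above the line, and the 3 pancreatitis libraries of each lineage as columns; grey means under 100 UMIs over both libraries. The 12 h column of classical monocytes holds 37 members called higher, the 24 h column of nonclassical monocytes holds the 5 lower immunoproteasome subunits, and the row of Psmg3 is high at 12 and 24 h in every lineage.

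The share of each immuno subunit among the UMIs of its pair does not depend on the scaling of a library. Capture differs between genes, so only shifts of a share are read, and the share of Psmb8 is low in every lineage. Psmb9 held 65.2% of Psmb9 and Psmb6 UMIs in classical monocytes without pancreatitis (62.2 to 68.1, Clopper-Pearson). In the 12, 24 and 96 h libraries it held 49.3% (47.7 to 50.9), 51.2% (49.6 to 52.9) and 61.1%. In nonclassical monocytes it held 74.4% (73.5 to 75.3), 68.7%, 61.0% (60.0 to 62.0) and 74.1%. The share was lower at 12 and 24 h than in control cells in both subsets. In nonclassical cells it was lowest at 24 h, while in classical cells the 12 h and 24 h intervals overlapped.

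Psmb10 held 81.2% of its pair with Psmb7 in control nonclassical monocytes and 81.0%, 74.0% (72.9 to 75.0) and 80.1% at 12, 24 and 96 h, and in classical monocytes 67.1% to 69.0% in all 4 libraries. Psmb8 held 8.51% of its pair with Psmb5 in nonclassical monocytes of the control library (7.52 to 9.57) and 6.27%, 4.62% and 5.38% later. In classical monocytes it held 3.92% (2.47 to 5.88) and then 1.63%, 2.11% and 2.46%. Psme1 and Psme2 together held 93.4% to 96.7% of their UMIs with Psme3 in every lineage and library. In lymphocytes the Psmb9 share was 71.1% in B cells of the control library and 65.4% at 24 h (63.3 to 67.3). It was 73.3% and 70.9% (69.6 to 72.1) in T cells, and 70.1% and 65.5% (62.6 to 68.4) in NK cells. The 24 h value was the lowest in each of these lineages, but its interval overlapped others. These were 12 h in B cells (67.8%, 66.1 to 69.5), 96 h in T cells (71.8%, 71.0 to 72.6) and every other library in NK cells.

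**Figure D3:**
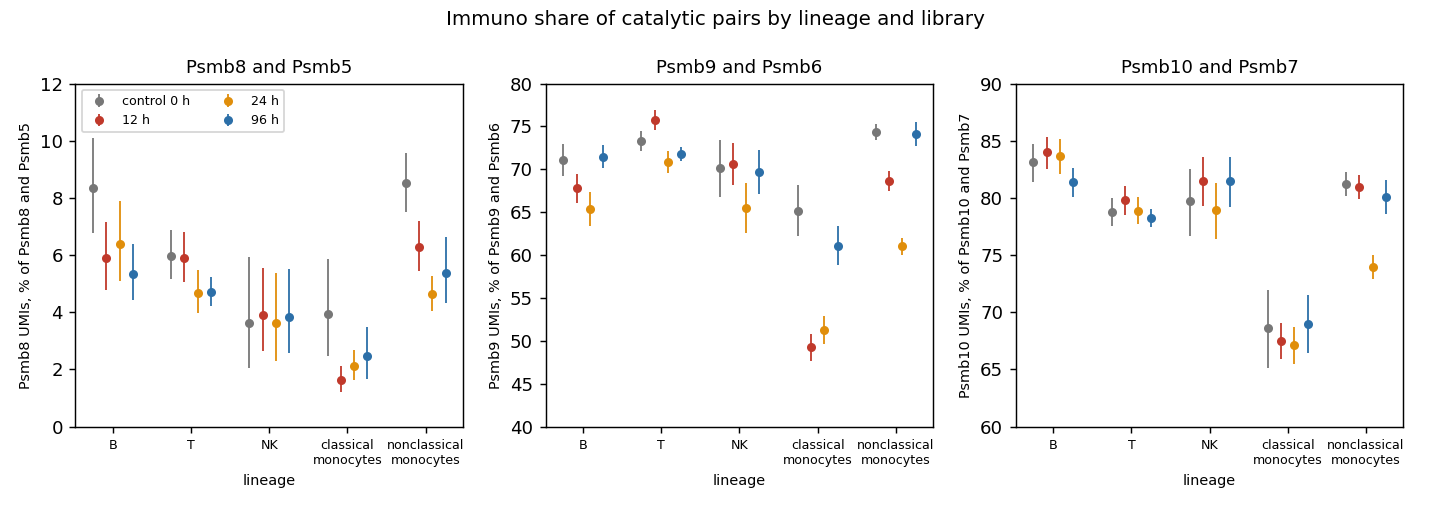
Share of UMIs held by the immuno subunit in each catalytic pair (y axis, percent of both genes' UMIs, the 3 axes differ, and those of Psmb9 and Psmb10 do not start at 0), by lineage on the x axis and library by colour; points are single libraries and bars are exact 95% intervals. The Psmb9 share was 65.2% in the control and 49.3% in the 12 h library of classical monocytes, and was 61.0% at 24 h in nonclassical monocytes.

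Psmg3, a chaperone that starts the alpha ring together with Psmg4, was higher at 12 and 24 h in every lineage. In B cells it was at 14.5 CPM in control cells and 26.7, 29.6 and 15.2 CPM at 12, 24 and 96 h. In T cells it was at 24.4, 41.3, 47.9 and 23.3 CPM, and in NK cells at 23.5, 36.1, 47.0 and 30.2. Classical monocytes had 34.3, 83.7, 62.3 and 41.1 CPM and nonclassical monocytes 28.8, 48.8, 56.8 and 27.8. Both early libraries were above the control and the 96 h library in each of the 5 lineages.

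At 12 h the ratios of Psmg3 to control were 1.84 (1.44 to 2.36) in B cells, 1.69 (1.48 to 1.93) in T cells, 1.54 (1.07 to 2.26) in NK cells, 2.44 (1.97 to 3.06) in classical and 1.70 (1.49 to 1.94) in nonclassical monocytes. At 24 h they were between 1.82 and 2.04. It was the 1 member of 43 tested in all lineages that was higher in all 5 at both times, beside 40 of 4125 genes (0.970%) at 12 h and 24 of 3782 (0.635%) at 24 h. None of 42 members met this at 96 h, beside 16 of 3790 genes. Over the alternatives tried, the ratios at both times kept within 1.40 and 2.51. Neutrophil marker RNA was high in the same libraries, and neutrophil-gated cells held 22.9 CPM of Psmg3 at 12 h (7.45 to 53.5, 5 UMIs) and 24.5 at 24 h (10.6 to 48.3, 8 UMIs). Its part in the result was not tested.

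Psmg4, the partner of Psmg3, was called higher at 12 h in classical monocytes alone among the 5 lineages (1.32, 1.14 to 1.55) and in none of them at 24 h. Its 24 h ratios were 0.960 (0.833 to 1.11) in B cells, 0.831 (0.757 to 0.912) in T cells, 0.729 (0.581 to 0.917) in NK cells, 1.07 (0.919 to 1.247) in classical and 0.787 (0.731 to 0.848) in nonclassical monocytes. In a share chosen after the values were seen, Psmg3 held 18.8% of the pair's UMIs in B cells of the control library and 32.9% at 24 h (29.1 to 36.9), and in T cells 27.9% and 47.7% (45.2 to 50.2). In NK cells the share was 21.4% and 42.7% (36.8 to 48.7), in classical monocytes 31.4% and 43.7% (41.4 to 46.1), and in nonclassical monocytes 21.8% and 41.2% (39.2 to 43.2). By 96 h it was 20.6%, 28.8%, 31.1%, 33.9% and 23.0% in that order, within the control's interval except in NK cells, where the control's interval ended at 27.8%. Psmg2 and Psmg1, the other chaperone pair of the alpha ring, kept a Psmg2 share of 25.1% to 36.4% in every lineage and library.

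**Figure D4:**
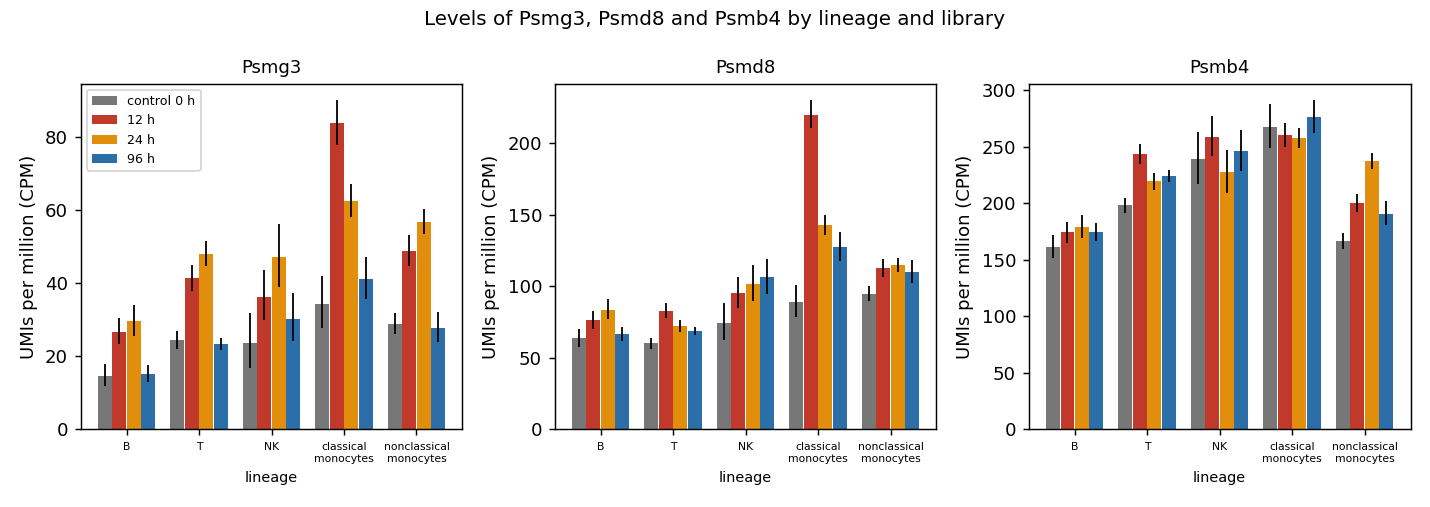
Level in CPM of Psmg3 (left), Psmd8 (middle) and Psmb4 (right), by lineage on the x axis and library by colour; bars are single libraries and error bars are exact Poisson 95% intervals. Psmg3 was above control at 12 and 24 h in every lineage, Psmd8 was highest in classical monocytes at 12 h (220 CPM), and Psmb4 was above control at 24 h in nonclassical monocytes (237 CPM).

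In T cells neither sum was past the size used for a call. The immunoproteasome sum was 1574 CPM in the control library and 1711, 1548 and 1669 at 12, 24 and 96 h, and the standard sum 4090, 4689, 4241 and 4471. The 12 h ratios were 1.09 (1.07 to 1.11) and 1.15 (1.13 to 1.16). Psmb9 was at 246, 320, 232 and 261 CPM, with 1.302 of control at 12 h (1.246 to 1.36), and Psmb8 at 11.03, 13.8, 9.92 and 9.79 CPM, with 1.2504 at 12 h (1.01 to 1.55). Over the alternatives the former ranged from 1.21 to 1.31 and the latter from 1.16 to 1.28, so neither call held under all of them. In T cells both were highest at 12 h, the time at which nonclassical monocytes had less Psmb9 than control (0.862, 0.830 to 0.896).

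At 12 h, 11 of 46 members were higher and 0 lower in T cells, a share close to the 21.6% of all genes (8.04% lower), and the count was 5 with scaling by the median of gene ratios, which moves all genes of this comparison by -0.11 on the log2 scale. The 11 included Psmd5, a chaperone of the base, at 14.97, 23.5, 20.2 and 19.2 CPM (1.57 of control at 12 h, 1.32 to 1.86). At 24 h 2 members were higher, Psmg3 and Psmd5 (1.35), and 0 lower, with 6.98% of genes higher and 22.1% lower, and at 96 h 1 was higher (Psmd5, 1.28) and 1 lower (Psmc3ip, 0.792), with 5.57% and 11.1%. The Psmd5 ratio at 96 h was 0.880 with cells thinned to 2000 UMIs, so its direction depends on that step. The dividing share of T cells was 1.49% in the control library and 3.69% at 12 h. The 7 NK markers summed to 407 CPM in control T cells and 684, 440 and 446 CPM at 12, 24 and 96 h, and Ncr1, an NK receptor, was at 6.53 CPM in control T cells and 14.0 at 12 h. Their part in the result was not tested.

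In B cells the immunoproteasome sum was 1603 CPM in the control library and 1524, 1529 and 1710 later, and the standard sum 4050, 4479, 4514 and 4445, with no ratio past the size used for a call. Of 46 members, 6 were higher and 1 lower at 12 h, where 19.5% of genes were higher and 7.79% lower. At 24 h 8 were higher and 0 lower, with 12.1% and 14.3%, and at 96 h 3 and 1, with 9.86% and 8.47%. Besides Psmg3, the chaperone Psmg2 led at both early times, at 12.1 CPM in control cells and 19.1, 19.3 and 15.2 CPM at 12, 24 and 96 h (1.59, 1.20 to 2.11, at 12 h). Psmb8 was the lower member at 12 and 96 h, at 14.4, 11.5, 12.3 and 10.3 CPM, with 0.715 of control at 96 h (0.539 to 0.950), while Psmb10 was at 249.1, 283, 293 and 279 CPM and 1.18 of control at 24 h (1.10 to 1.26).

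In NK cells neither sum was past the size used for a call. Their immunoproteasome sum was 2080 CPM in the control library and 1991, 1896 and 2140 later, and the standard sum 5233, 5226, 5449 and 5541. Of 43 members, 3 were higher and 2 lower at 12 h (16.5% and 7.97% of all genes), 4 and 1 at 24 h (14.0% and 13.2%), and 4 and 1 at 96 h (14.6% and 8.3%). Psmd8 was at 74.5, 95.3, 102 and 106 CPM, with 1.28, 1.36 and 1.43 of control, and Psmg4 was at 86.5, 67.8, 63.1 and 66.9 CPM, at 0.773 (0.622 to 0.963) at 96 h. The dividing share of NK cells was 6.88% in the control library, 3.36% at 12 h and 15.1% at 24 h, and its part in these values was not tested.

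Nonclassical monocytes had few called members at the other times. At 12 h 6 of 46 were higher and 0 lower (18.2% and 10.1% of all genes), among them Psmd9, a chaperone of the base, at 24.6 CPM in the control library and 35.2, 34.5 and 31.2 later (1.43 at 12 h, 1.23 to 1.66). At 96 h 2 were higher and 1 lower (8.02% and 8.98%), the lower one being Psmb8. Psmd8 was above control in all 15 comparisons, between 1.04 and 2.47, and so were Psma5, Psmb5 and Psmg1. This counts any ratio above control, not only those past the size used for a call. At 24 h Psma5 was only between 1.005 and 1.06 of control. The share of all genes that did so in all 15 comparisons was not computed, so this is not read as a trait of these members.

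Of 37 listed genes that work with the proteasome, 35 are in the files. In nonclassical monocytes at 24 h, 0 of 34 tested were higher and 12 lower, with 12.0% and 23.7% of all genes, and their median log2 ratio was -0.20, against -0.08 over all genes. The antigen peptide transporter Tap1 was at 158 CPM in control cells and 113, 85.1 and 133 CPM at 12, 24 and 96 h (0.54 of control at 24 h), and its partner Tap2 was at 37.6, 35.0, 16.3 and 22.8 CPM (0.43). Irf1, a regulator that switches on immunoproteasome genes, was at 231, 86.1, 99.8 and 186 CPM (0.43). B2m, the light chain of MHC class I, was at 0.84. Psmb9, Tap1 and Tap2 were each lowest in the 24 h library of these cells, and Irf1 at 12 h.

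In classical monocytes at 12 h the list moved both ways, with 12 of 33 genes higher and 12 lower, where 35.4% of all genes were higher and 25.2% lower. Pomp, the chaperone that matures the beta ring, was at 68.9 CPM in control cells and 115, 65.2 and 63.4 CPM at 12, 24 and 96 h (1.67 at 12 h). Vcp, the ATPase that extracts ubiquitinated proteins, was at 122 and 220 CPM (1.81), and Calr, an endoplasmic reticulum chaperone of class I loading, at 494 and 1418 CPM (2.87). Tap1 was at 114, 48.0, 50.4 and 86.6 CPM (0.42 at 12 h) and Irf1 at 181, 39.4, 92.3 and 129 (0.22). Nfe2l1, which raises proteasome genes when proteasome activity falls short, held under 6 CPM here and was not tested, and Nfe2l2 was at 0.79 of control at 12 h and 1.73 at 24 h.

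In T cells 5 of 33 genes of the list were higher at 12 h and 1 lower, where 21.6% and 8.04% of all genes were. Tap1 was there at 87.5 CPM in the control library and 121 at 12 h (1.39), Tap2 at 1.34 and Irf1 at 0.96. At 24 h 1 was higher and 7 lower, with 6.98% and 22.1% of all genes. In B cells 5 of 33 were higher and 5 lower at 12 h, with 19.5% and 7.79% of all genes, Irf1 being lowest (69.5 and 44.0 CPM, 0.63). In NK cells 0 of 31 were higher and 1 lower, with 16.5% and 7.97% of all genes. The ubiquitin genes Ubb and Rps27a were neither higher nor lower in any lineage at 12 or 24 h.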

How the data were processed

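Each of the 4 libraries, 1 per group, was given as a gene by cell matrix. Its values are UMI counts as deposited by the authors, whole numbers with no normalization. The submitters' processing notes name Cell Ranger, Seurat and the mouse build mm10, without versions. A cell was kept from 200 detected genes and up to 10% mitochondrial UMIs, and Scrublet in scanpy 1.11.5 marked 4.07% to 5.49% as doublets, which were removed. Cells were gated, not clustered: at least 2 detected markers of a lineage (3 for NK cells) and fewer than 2 of the B, T and monocyte lists other than its own. Monocytes were split by which subset list had more markers detected; 175 to 578 per library were left unsplit, and 1466 to 1791 cells were ungated. Groups came from the sample titles.

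Counts were summed per library and lineage where each library held at least 50 cells, and scaled to CPM. Intervals (95%) are exact Poisson for levels, Clopper-Pearson for shares and conditional binomial for ratios; depth, 60515205 to 79516878 UMIs per library, sets their width. Members with at least 100 UMIs over both libraries were called higher from 25% above control and lower from 20% below it, a size and not a test. Named genes are the immunoproteasome subunits, Psmb5, Psmb6, Psmb7, Psme3 and, per lineage and time, the 2 largest and 2 smallest ratios among the rest. Of the pathway list, those of direct role and the extremes were named; others, Psmb1, Psmb3, Psma2, Psmc5, Psmd4, Psme4, Psmg1, Vcp, Tap2 and Calr among them, were chosen after their values were seen. Values of some genes on the pathway list are not reported here. Members and lists were chosen with earlier results of these data known. The ratio and interval code was tested on simulated data. Python 3.11.15, numpy 2.4.6, scipy 1.17.1, pandas 2.3.3 and matplotlib 3.10.9 were used.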

Additional observations from a re-analysis of the deposited data

Results flagged for a closer look

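Members called higher in 1 lineage and lower in another at the same time are given here; none of these differences was tested, since each group has 1 library. At 12 h Psmb8 was at 1.2504 of control in T cells and 0.796 in B cells, on 179 and 174 UMIs in T cells and 93 and 94 in B cells. At 12 h Psmc6, a base ATPase, was at 1.57 of control in classical monocytes and 0.796 in NK cells, and Psmg4 at 1.32 and 0.784 in the same lineages. At 96 h Psmc3ip, which is not a subunit, was at 1.27 of control in nonclassical monocytes and 0.792 in T cells. Not all of these calls held under the alternatives tried: Psmb8 ranged from 1.16 to 1.28 in T cells and from 0.749 to 0.797 in B cells, and in NK cells Psmc6 ranged from 0.739 to 0.904 and Psmg4 from 0.755 to 0.844. Psmc3ip in both lineages, and Psmc6 and Psmg4 in classical monocytes, were not recomputed under the alternatives at these times.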

How the results depend on the processing

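Alternatives changed 1 choice at a time, and 2 of them were chosen after seeing the data: a monocyte split that asks for a lead of 2 markers, and all gated monocytes together. The standard sum of classical monocytes at 12 h, 1.59 of control, was 1.62 with no cell filter, 1.46 without dividing cells, 1.47 with a total without ribosomal protein and mitochondrial genes, 1.54 with cells thinned to 2000 UMIs, 1.51 as a mean over cells and 1.251 with all gated monocytes together. The immunoproteasome sum of nonclassical monocytes at 24 h, 0.719, was 0.766 with scaling by the median of gene ratios, 0.742 with cells thinned, 0.745 as a mean over cells, 0.741 with a lead of 2 markers and 0.682 with all gated monocytes; 3 rather than 5 of its subunits were lower with the median of gene ratios, and 2 at 1.5-fold. The Psmb9 share at 12 h in classical monocytes, 49.3%, was 52.4% with cells thinned, 52.1% as a mean over cells, 47.3% with a lead of 2 markers and 61.8% with all gated monocytes. At 24 h the shares of 51.2% in classical and 61.0% in nonclassical monocytes were both 57.4% with all gated monocytes, which makes them 1 population, and the former 53.4% with cells thinned. The 37 members higher in classical monocytes at 12 h were 21 with all gated monocytes, and the 15 at 24 h were 4 there and 3 at 1.5-fold. The 11 in T cells at 12 h were 5 with the median of gene ratios, 7 with a total without ribosomal protein and mitochondrial genes and 2 at 1.5-fold. Direction turned for Psmd5 in T cells at 96 h (1.28 as reported, 0.880 with cells thinned, up to 1.31 over the alternatives) and Psmg2 in classical monocytes at 96 h (1.40 as reported, 0.965 with all gated monocytes, up to 1.76 over the alternatives). Of the other ratios of single members, 1615 stayed within the counting interval of the reported value and 99 moved outside it without turning a called direction. Over all genes, scaling by the median of gene ratios changed the share of calls that were higher from 71.5% to 51.7% in B, 72.8% to 50.7% in T, 67.4% to 53.9% in NK cells and 64.4% to 47.9% in nonclassical monocytes at 12 h, and from 24.0% to 49.95% in T cells, 43.4% to 57.3% in classical and 33.7% to 51.3% in nonclassical monocytes at 24 h. The total without ribosomal protein and mitochondrial genes changed it from 58.4% to 47.8% at 12 h and 60.5% to 50.2% at 96 h in classical monocytes, and from 72.8% to 60.1% at 12 h and 24.0% to 38.8% at 24 h in T cells. The cause of these shifts was not tested. With 1 library per group no replicate could be left out. No paired analysis was possible because each group has 1 library. Psmb8 in classical monocytes and NK cells, Psmd10 and Psma8 were limited by depth.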

Other observations

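T cells were split by detection of Cd4 or of Cd8a or Cd8b. This gave 180 to 488 CD4 and 855 to 2380 CD8 T cells per library, out of 2087 to 5608 T cells. The other T cells were left unsplit. In T cells Cd4 was at only 14.8 to 20.5 CPM and the CD8 list at 631 to 858, so these counts do not give the proportions of the subsets. The immunoproteasome sum of CD8 T cells was 1.03 of that of CD4 T cells without pancreatitis (0.977 to 1.08); the ratios of the 12, 24 and 96 h libraries were 1.10 (1.04 to 1.15), 1.14 and 1.13. The Psmb9 share was 72.1% in CD4 and 75.7% in CD8 T cells of the control library, and 67.5% and 71.7% at 24 h. Cd4 itself was listed at 61.2 CPM in nonclassical monocytes of the control library and 16.6 CPM in T cells, and the CD8 list at 221 CPM in nonclassical monocytes of the control library and 656 at 96 h.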
